A study of Mus musculus with 6 samples.

Results

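The genes described here are 10 hormone, receptor and regulator genes of the stress axis: Crh, Avp, Pomc, Crhr1, Crhr2, Oxtr, Crhbp, Nr3c1, Nr3c2 and Fkbp5. They were read from lists of methylated regions (peaks) in mouse hippocampus, by taking every peak that the authors' annotation gives to one of these gene names. Of 148832 peaks in 6 libraries, 86 belonged to the 10 genes, which are 10 of the 13142 genes with a peak in any library. Where peaks of different libraries shared at least 1 bp they were merged to a region, and the 86 peaks lay in 34 of 48853 regions. No peak was annotated to more than 1 of the 10 genes.

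The libraries came from 6 male C57BL/6 mice at postnatal day 21. Per the labels, 3 pups had received ethanol under the skin (2.5 g/kg, dissolved in 0.15 M NaCl) and 3 had received 0.15 M saline alone, 2 injections a day on postnatal days 4 and 7. All were matched littermates with no genetic alteration named, each library was taken as 1 animal, and the sources used here do not say who shared a litter with whom. Hippocampus holds many cell types, and a change in their proportions cannot be told apart from a change within cells. In this assay, MeDIP-seq, fragments bound by a 5-methylcytosine antibody are sequenced, so that a peak marks a stretch rich in methylated cytosine, most of it in the dinucleotide CpG. The deposited lists hold no expression values, so the tissue label could not be checked against marker genes, but every library had peaks on the Y chromosome (between 403 and 707). The ethanol lists held 23141, 34904 and 28386 peaks and the saline lists 18922, 22703 and 20776. Numbers of peaks per gene are therefore read beside the length of the list, which differed between the treatments. Library totals are not in the lists used here. The lowest background pileup of a list, which follows depth, was 2.16, 2.33 and 2.34 in ethanol and 1.85, 2.65 and 2.02 in saline libraries.

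In the stress axis, neurons of the hypothalamus release corticotropin-releasing hormone and vasopressin, the pituitary answers with corticotropin cut from the Pomc precursor, and the adrenal gland releases glucocorticoids. The hippocampus carries both receptors for these steroids at high levels and takes part in shutting the axis down. Methylation at the glucocorticoid receptor promoter and at intronic hormone response elements of Fkbp5 has been much studied in work on early-life stress.

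The regions on which the results turn are shown as 300 bp of the plus strand of mm10, centred on the median summit, with each CpG in capitals. The first set is 3 of the 4 regions with a peak in all 6 libraries and under 50% of their bases soft-masked as repeats, shown because they recur in every animal and differ in sequence. The Pomc region (chr12:3930317-3930616) holds 33 CpG, the Crhr1 region (chr11:104072819-104073118) 29 and the Nr3c2 region (chr8:77185940-77186239) 22.

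Pomc, 24.5 kb upstream: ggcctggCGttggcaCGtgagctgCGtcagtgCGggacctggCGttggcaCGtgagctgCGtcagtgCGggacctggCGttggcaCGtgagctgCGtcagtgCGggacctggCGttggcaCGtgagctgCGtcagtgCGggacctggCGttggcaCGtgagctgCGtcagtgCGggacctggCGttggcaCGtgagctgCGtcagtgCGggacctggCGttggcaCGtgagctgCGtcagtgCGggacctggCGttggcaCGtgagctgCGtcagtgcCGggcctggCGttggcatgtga
Crhr1, 59.9 kb upstream: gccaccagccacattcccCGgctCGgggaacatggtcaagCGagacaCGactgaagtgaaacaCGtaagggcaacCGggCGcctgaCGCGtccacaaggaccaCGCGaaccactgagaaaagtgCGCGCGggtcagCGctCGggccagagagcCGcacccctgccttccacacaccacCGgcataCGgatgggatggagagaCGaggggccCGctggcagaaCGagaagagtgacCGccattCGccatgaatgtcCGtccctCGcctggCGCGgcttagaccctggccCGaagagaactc
Nr3c2, 283.6 kb downstream of the start: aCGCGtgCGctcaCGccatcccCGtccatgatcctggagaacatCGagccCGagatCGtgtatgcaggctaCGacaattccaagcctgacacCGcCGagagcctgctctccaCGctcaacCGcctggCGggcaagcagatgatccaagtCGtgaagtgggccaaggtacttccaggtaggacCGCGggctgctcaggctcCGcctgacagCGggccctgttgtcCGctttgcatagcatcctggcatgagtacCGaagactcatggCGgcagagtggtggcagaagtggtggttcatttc

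The Pomc sequence is a tandem repeat. Shifted by 35 bases against itself, 98.5% of its bases matched. It was the only 1 of the 34 windows to reach 80% at any step between 2 and 100 bases. That level, chosen after seeing these values, was reached by 1.18% of all windows. Among windows of regions in all 6 libraries, as the Pomc region is, the share was 1.65%.

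The last set is the 2 peaks of these genes classed as promoter, which means a summit within 2000 bp of the start. The Avp window (chr2:130583364-130583663) holds 4 CpG and the Crhbp window (chr13:95445373-95445672) 13.

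Avp, 973 bp upstream: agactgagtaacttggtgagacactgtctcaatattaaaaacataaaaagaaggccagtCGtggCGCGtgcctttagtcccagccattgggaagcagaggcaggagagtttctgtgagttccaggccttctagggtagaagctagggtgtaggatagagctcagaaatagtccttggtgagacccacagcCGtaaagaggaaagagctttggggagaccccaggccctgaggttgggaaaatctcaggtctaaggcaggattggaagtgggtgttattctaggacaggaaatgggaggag
Crhbp, 692 bp upstream: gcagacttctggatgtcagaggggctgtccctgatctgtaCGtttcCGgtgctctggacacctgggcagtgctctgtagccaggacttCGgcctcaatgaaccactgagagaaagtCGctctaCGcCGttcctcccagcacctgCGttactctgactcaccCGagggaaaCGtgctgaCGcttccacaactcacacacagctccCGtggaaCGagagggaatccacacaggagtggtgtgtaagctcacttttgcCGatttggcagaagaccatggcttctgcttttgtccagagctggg

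A glucocorticoid response element, searched as GNACANNNTGTNC, which reads the same on both strands, was in 0 of the 34 windows and in 0.319% of all windows of this length. At so low a share, 34 windows are too few to show a lack of the element.

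Peaks of the stress axis genes were mostly classed intergenic, as were those of all genes. Of the 86 peaks, 57 (66.3%) were classed intergenic, 27 (31.4%) gene body and 2 (2.33%) promoter, against 72.7%, 24.2% and 3.05% of all peaks. Of the 34 regions, 19 (55.9%) were more than 100 kb from the annotated start, against 36.5% of all regions, and 18 of the 19 belonged to Nr3c1 (5) and Nr3c2 (13). At the other genes 1 of 15 regions (6.67%), that of Crh, was beyond 100 kb. In the GENCODE annotation Nr3c1 starts farther upstream, and its regions 106.6 and 131.6 kb upstream are 74.4 and 99.4 kb from that start. Among the genes without a promoter peak, the peak nearest to the start was 6.61 kb away at Fkbp5, 17007 bp at Nr3c1, 21.5 kb at Crhr1, 24.4 kb at Pomc, 29.8 kb at Crhr2, 45.5 kb at Oxtr, 94.7 kb at Crh and 142 kb at Nr3c2. The other 2 genes are Avp and Crhbp, so 8 of the 10 had no promoter peak in any library. The like share of all genes is not given here. RefSeq promoter windows (GRCm38.p6, from 250 bases before to 50 after the start) were found for 8 of the 10 genes, not for Crh and Nr3c1. They held 32 CpG at Fkbp5, 31 at Crhr1, 20 at Oxtr, 18 at Pomc, 17 at Nr3c2, 9 at Crhbp, 8 at Avp and 5 at Crhr2, where the median of 32851 such windows was 7. None of these windows was reached by a promoter peak, and where a list has no peak, the authors' threshold was not met there and nothing more is known.

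**Figure D1:**
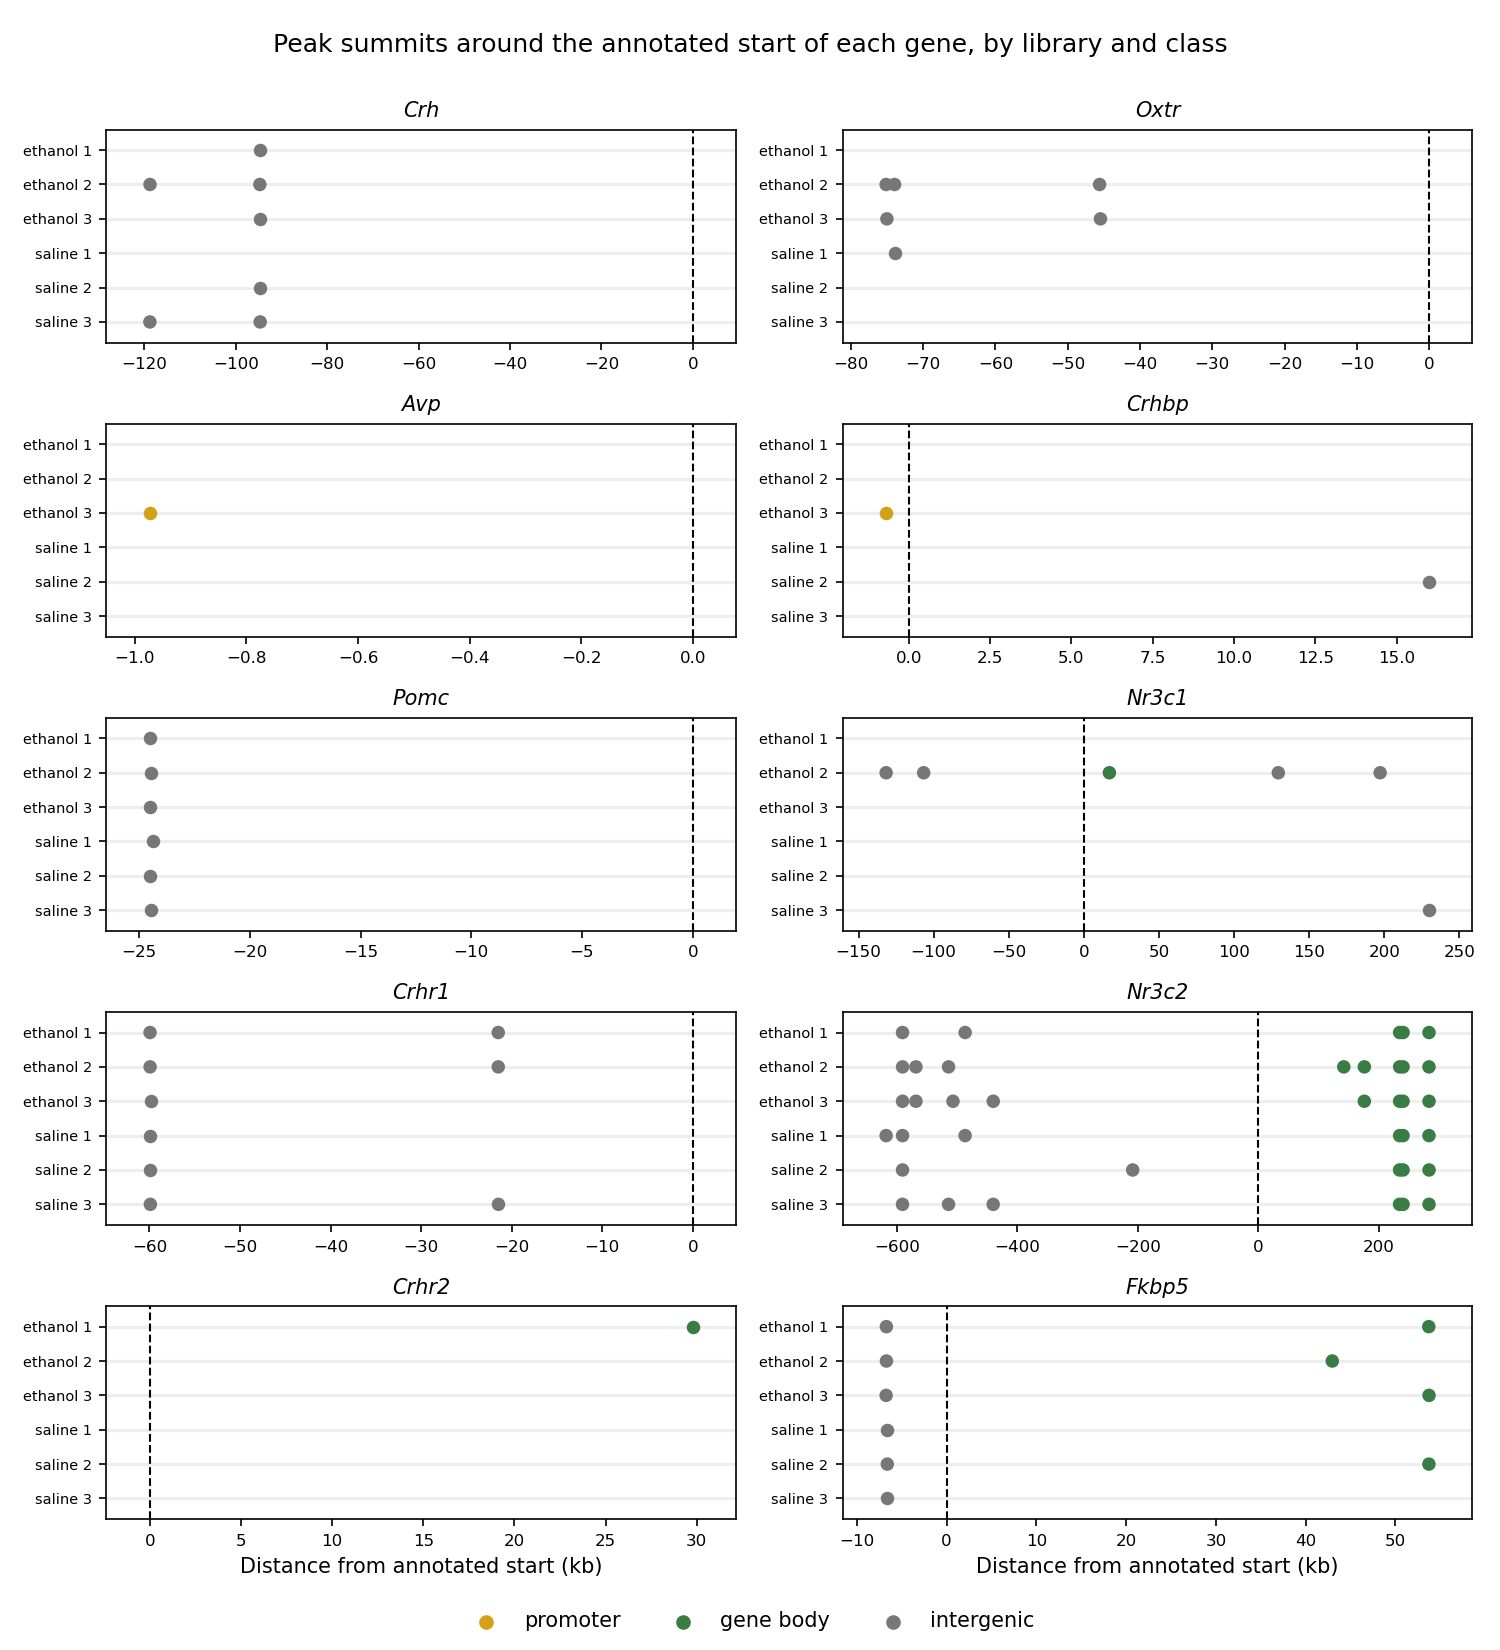
Summits of all 86 peaks of the 10 genes, plotted by signed distance from the annotated start in kb (horizontal, a different scale in each panel) and by library (vertical, ethanol above saline). Points are single peaks coloured by class, and the dashed line is the start. Columns of points that run through all 6 libraries appear at Pomc, Crhr1, Fkbp5 and Nr3c2, and the 2 promoter peaks, at Avp and Crhbp, are both in ethanol replicate 3.

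The hormone genes Crh, Avp and Pomc had 7, 1 and 6 peaks over the 6 libraries. Crh, which encodes corticotropin-releasing hormone, had 1, 2 and 1 peaks in ethanol and 0, 1 and 2 in saline libraries. They formed 2 regions upstream of the gene. The nearer (chromosome 3, 19789843 to 19790440), 94.7 kb away, was held by 3 ethanol libraries with a summit pileup of 29, 28 and 51 tags and by 2 saline libraries with 41 and 25 tags. Saline replicate 1, the shortest list, was the library without it. Of the bases of this nearer region 64.9% are soft-masked, as are 96% of the 300 bp at its summit. The farther region (19813921 to 19814521), 118.8 kb away and wholly soft-masked, had a peak in ethanol replicate 2 and saline replicate 3, with 54 and 33 tags. Of the 34 regions of the 10 genes, 11 (32.4%) were more than 50% soft-masked, against 46.5% of all regions.

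Avp, which encodes vasopressin, had a single peak in the series, in ethanol replicate 3 (chromosome 2, 130583271 to 130583814). Its summit pileup was 33 tags and its fold enrichment over the local background, the authors' value, was 8.25. By significance it stood at percentile 44.7 of its own list.

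Pomc, the precursor gene of corticotropin and the opioid peptide beta-endorphin, had exactly 1 peak in each of the 6 libraries, all in the same region (chromosome 12, 3930075 to 3930928). It is the CpG-rich tandem repeat shown above, and lies 15.6 kb beyond the end of Dnmt3a, which encodes a DNA methyltransferase. GENCODE has no gene at the summit. The peak stood between percentiles 80.7 and 98.2 of its lists by significance. The handling of reads that match several places is not stated, and the pileup of a repeat depends on it.

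The hormone receptors differed from each other in how regularly their peaks recurred. Crhr1, the main receptor for corticotropin-releasing hormone in the brain, had 2, 2 and 1 peaks in ethanol and 1, 1 and 2 in saline libraries. The region 59.9 kb upstream (chromosome 11, 104072691 to 104073332) was in all 6 and, at 6.23 CpG per 100 bp, was the densest of the 34. The region 21.5 kb upstream (104111152 to 104111683), with 0.940 CpG per 100 bp, was in ethanol replicates 1 and 2 and saline replicate 3, with 44, 43 and 31 tags. Crhr2, the receptor with higher affinity for urocortins, had a single peak, of 38 tags in ethanol replicate 1 (chromosome 6, 55102950 to 55103489), whose summit is in a coding exon of Crhr2.

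Oxtr, the oxytocin receptor gene, had 0, 3 and 2 peaks in ethanol and 1, 0 and 0 in saline libraries, all 45.5 to 75.1 kb upstream. The region 45.5 kb away (chromosome 6, 112535027 to 112535830) was in ethanol replicates 2 and 3 with 29 and 35 tags and is wholly soft-masked. The region 75.1 kb away (112564644 to 112565327) was in the same libraries with 36 and 34 tags, and that 74.0 kb away (112563576 to 112564084) in ethanol replicate 2 and saline replicate 1 with 38 and 42 tags. The summits of the last 2 regions fall in an exon of the processed pseudogene Gm15519. Ethanol replicate 1 had no Oxtr peak, so the groups overlapped.

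Crhbp encodes a secreted protein that binds corticotropin-releasing hormone and holds it from its receptors. It had 0, 0 and 1 peaks in ethanol and 0, 1 and 0 in saline libraries, at different places. The ethanol replicate 3 peak was the promoter peak shown above (chromosome 13, 95445297 to 95445776), with 30 tags, at percentile 11.4 of its list. The saline replicate 2 peak (95428438 to 95429054), with 33 tags, lay beyond the 3′ end of the gene.

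The corticosteroid receptor genes differed in recurrence, with 0 of 6 regions in all 6 libraries at Nr3c1 and 4 of 13 at Nr3c2. Nr3c1, the glucocorticoid receptor gene, had 0, 5 and 0 peaks in ethanol and 0, 0 and 1 in saline libraries, on chromosome 18. The 6 peaks fell in 6 separate regions, none of which was in a second library. Only the peak 17007 bp downstream of the annotated start (39469840 to 39470437, an intron, 35 tags) was in Nr3c1 itself. It lies 49.2 kb from the GENCODE start. In GENCODE the 3 farthest peaks on the downstream side, in ethanol replicate 2 and saline replicate 3, have their summits in Arhgap26, 2 in introns and 1 in a coding exon. The weakest, 106.6 kb upstream of the annotated start and 74.4 kb from the GENCODE start, had 19 tags and stood at percentile 2.12 of its list.

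Nr3c2 encodes the mineralocorticoid receptor, which binds corticosterone with higher affinity and is strongly expressed in hippocampal neurons. It had 5, 8 and 8 peaks in ethanol and 6, 5 and 6 in saline libraries, 38 in all, in 13 regions on chromosome 8. Of these regions 4 were in all 6 libraries. They lay 590.7 kb upstream (76311311 to 76312267), and 234.7 kb (77136897 to 77137531), 240.5 kb (77141950 to 77143329) and 283.6 kb (77185698 to 77186394) downstream of the start. The first 2 of those inside Nr3c2 are intronic and 100% and 93.6% soft-masked. The region 590.7 kb upstream, with its summit in an intron of the noncoding RNA gene Gm45740, is 99.0% soft-masked. Over all regions of the series held by all 6 libraries the median was 69.2%. The region 283.6 kb downstream falls in a coding exon, with 4.59 CpG per 100 bp and 6.31% of its bases masked.

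The other 9 Nr3c2 regions were in 1 or 2 libraries each, 7 of them upstream and 2 in introns, with a pileup of at most 36 tags. The regions 568.4 kb upstream and 176.1 kb downstream had peaks in ethanol replicates 2 and 3 and in no saline library. Those 618.0 and 208.5 kb upstream were each in a single saline library. In GENCODE the assigned gene had the nearest coding start at 33 of all 34 regions. The exception was the Fkbp5 region 53.7 kb downstream, where the start of Tulp1 was nearest. At 6 of the 8 upstream Nr3c2 regions the end of Iqcm, a coding gene on the other side, was nearer than Nr3c2. At the farthest the gap was 299.8 kb against 614.6 kb.

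Fkbp5 encodes a co-chaperone that lowers the glucocorticoid receptor's affinity for its hormone and is itself induced by glucocorticoids. It had 2, 2 and 2 peaks in ethanol and 1, 2 and 1 in saline libraries, in 3 regions on chromosome 17. The region 6.7 kb upstream of the start used by the authors was in all 6 libraries. GENCODE places its summit in an intron of Fkbp5, whose longer transcripts start farther upstream. The intronic region 53.7 kb downstream (28432197 to 28432755) was in ethanol replicates 1 and 3 and saline replicate 2, with 53, 44 and 44 tags. In ethanol replicate 2 the gene body peak was at another place, 43.0 kb downstream (28442991 to 28443470), with 34 tags.

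**Figure D2:**
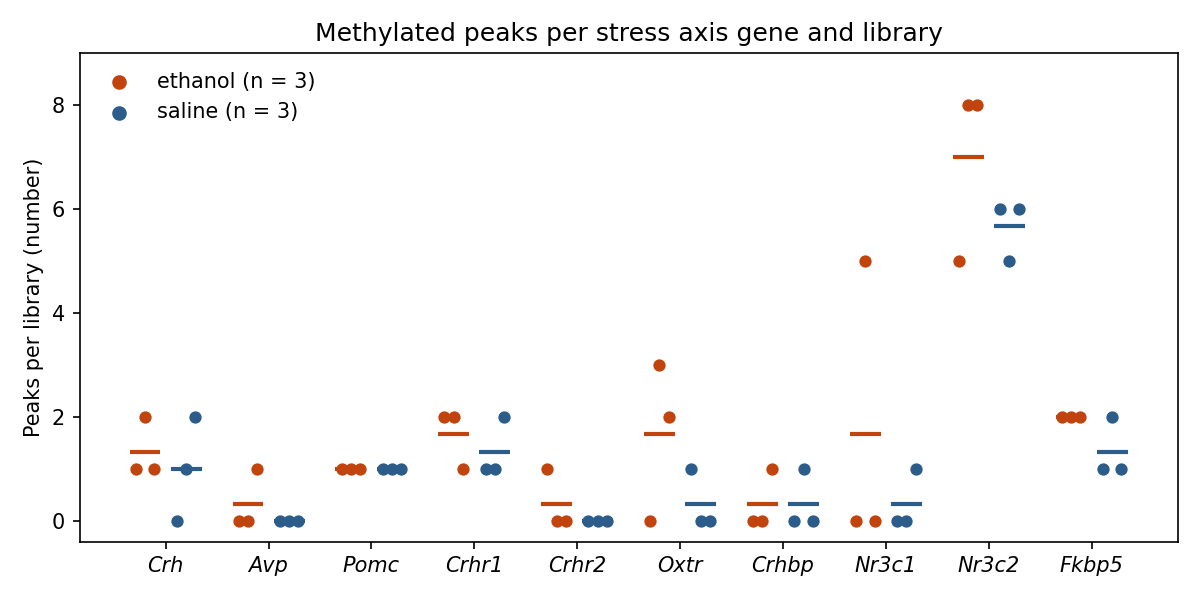
Number of peaks annotated to each gene (vertical) in each library, with ethanol left of saline for each gene. Points are libraries and lines are the means of 3. Nr3c2 had the most peaks, 5 to 8 in ethanol and 5 to 6 in saline libraries, Pomc had 1 in every library, and the groups overlap or touch at all 10 genes.

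For no gene did the treatments separate by number of peaks. At 0 of 10 genes were all ethanol libraries above all saline libraries, which 5.12% of all 13142 genes showed, and at 0 of 10 below, which 0.0989% showed. The mean was higher in ethanol at 8 genes and equal at 2, where it was higher at 67.7% and lower at 11.3% of all genes. These counts depended on scaling. With lists of equal length the mean was higher at 5 genes, lower at 2 and equal at 3 (35.8% higher and 36.0% lower over all genes), and per 10000 peaks it was higher at 5 and lower at 5. The median difference was 0.333 peaks over the 10 genes and 0.333 over all genes. The largest were 1.33 peaks, at Nr3c1, Nr3c2 and Oxtr, but with lists of equal length these were 0.333 at Nr3c1, -1 at Nr3c2 and 0 at Oxtr. At Nr3c2 the mean was 7.00 ± 1.73 in ethanol and 5.67 ± 0.577 in saline libraries, and at Oxtr 1.67 ± 1.53 in ethanol and 0.333 ± 0.577 in saline mice (SD, n = 3 each; two-sided exact permutation p = 0.4 for each, 1 after Benjamini-Hochberg adjustment over all genes). At Nr3c1 it was 1.67 ± 2.89 in ethanol and 0.333 ± 0.577 in saline mice (exact permutation p = 1), and all the ethanol peaks were in replicate 2, the longest list. No division of 3 against 3 can give a p below 0.1, and the lowest adjusted p over all genes was 1. Without ethanol replicate 1 the groups of 2 genes, Nr3c2 and Oxtr, no longer overlapped, and without saline replicate 2 those of 1 gene, Fkbp5, with ethanol higher in each. The same held at 17.6% of all genes without ethanol replicate 1 and at 10.6% without saline replicate 2.

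Together the 10 genes had 12, 23 and 17 peaks in ethanol and 10, 11 and 13 in saline libraries, a ratio of means of 1.53. The ethanol replicate 1 value lay within the saline range. Per 10000 peaks of the list they had 5.19, 6.59 and 5.99 in ethanol and 5.28, 4.85 and 6.26 in saline libraries, a ratio of 1.08. With lists of equal length the ratio was 1.03. No p was computed for these sums.

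No region of these genes was specific to a treatment. Regions that all 3 ethanol libraries and no saline library held numbered 0 of 34, where 1.49% of all regions had that pattern, and the reverse pattern 0 of 34, where 0.108% had it. In ethanol libraries only, but not in all 3, were 15 regions (44.1%), and 4 (11.8%) were in saline libraries only. The like shares of all regions were 33.8% and 9.17%. Of the 15, 4 were in ethanol replicates 2 and 3, the longest lists: those of Oxtr 45.5 and 75.1 kb upstream and of Nr3c2 568.4 kb upstream and 176.1 kb downstream. Without ethanol replicate 1 these 4 would count as specific to ethanol, as 6.20% of all regions then did.

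Regions in all 6 libraries had a higher median CpG density than those in a single library, as in the whole series. The 7 regions held by all 6 libraries, 20.6% of the 34 against 21.0% of all regions, had a median of 4.35 CpG per 100 bp, where 3.46 was the median of all such regions. The 15 regions held by a single library had 1.67, where all such regions had 1.73. The Fkbp5 region 6.7 kb upstream, with 1.61, was the poorest of the 7 and the others had 3.62 to 6.23. Of the 15 single-library regions, 7 were in ethanol replicate 2, 3 in ethanol replicate 3 and 2 in saline replicate 2, with 1 in each of the other libraries.

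**Figure D3:**
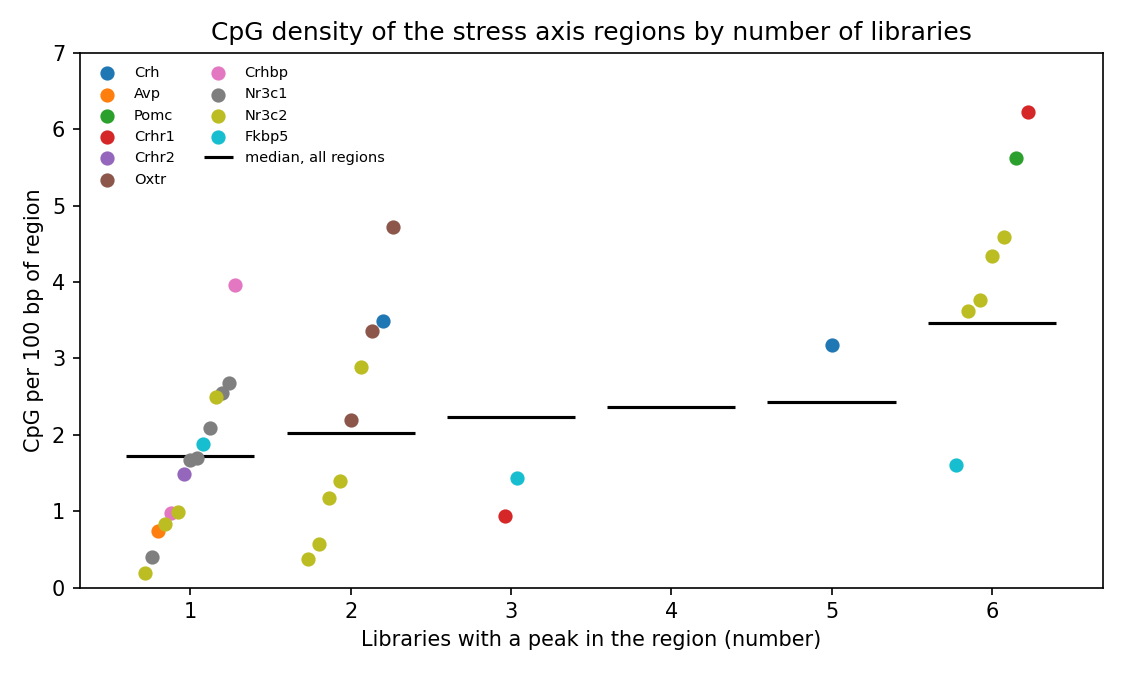
CpG per 100 bp of each of the 34 regions (vertical) by the number of libraries with a peak in it (horizontal). Points are regions coloured by gene and spread sideways to be seen, and black lines are the medians of all regions held by that number of libraries. Crhr1 and Pomc are highest among the regions of all 6 libraries, and the Fkbp5 region is below the others there.

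Summit pileup could be compared in the 7 regions with a peak in every library, after division by a factor per library taken from the 10276 regions held by all 6. The factors were 0.999, 1.19 and 1.06 in ethanol and 0.844, 1.04 and 0.923 in saline libraries. The groups did not overlap at 1 of the 7, that of Fkbp5 6.7 kb upstream. The scaled pileup there was 72.1, 47.1 and 53.6 tags in ethanol and 37.9, 43.2 and 44.4 in saline libraries. All ethanol libraries were above all saline libraries, which also held at 5.3% of all 10276 regions, while 5.14% showed the reverse and none of the 7 did.

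The Fkbp5 difference was 0.44 on the log2 scale (SE 0.21, 95% interval 0.01 to 0.87), a 1.36-fold higher pileup. It did not pass limma's test with Benjamini-Hochberg adjustment over all regions (adjusted p = 0.902, unadjusted p = 0.0454, exact permutation p = 0.1). Without ethanol replicate 1, the highest value, it was 0.27. In limma's test 0% of all regions passed in either direction, and 539 (5.25%) had an unadjusted p under 0.05. The exact permutation test could call no region, because 3 against 3 cannot give a p below 0.1. Of the 300 bp at the summit 90.7% are soft-masked as repeats, as are 47.3% of the whole region, and their part in this difference was not tested.

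At Pomc the scaled pileup was 104.1, 91.6 and 81.9 tags in ethanol and 68.7, 157 and 113 tags in saline libraries. The saline libraries spanned a wider range, which enclosed all ethanol values, and the difference was -0.21 on the log2 scale (95% interval -0.73 to 0.31; limma adjusted p = 0.945). At Crhr1 it was 77.1, 84.9 and 82.8 tags in ethanol and 103.1, 78.8 and 95.3 in saline libraries, with overlap (-0.17 on the log2 scale, 95% interval -0.58 to 0.23; limma adjusted p = 0.942).

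At the 4 Nr3c2 regions the differences had both signs. The region 590.7 kb upstream had 115, 126 and 88.4 scaled tags in ethanol and 88.8, 96.1 and 94.3 in saline libraries, and that 240.5 kb downstream 90.1, 90.8 and 118 in ethanol and 129, 75.9 and 79.1 in saline libraries. On the log2 scale the differences were 0.22 and 0.10. The region 234.7 kb downstream had 46.0, 42.0 and 46.1 scaled tags in ethanol and 50.9, 49.0 and 42.3 in saline libraries, and the coding exon 283.6 kb downstream 35.0, 42.9 and 58.3 in ethanol and 52.1, 37.5 and 76.9 in saline libraries. Here too the groups overlapped, with differences of -0.08 and -0.26 (limma adjusted p between 0.928 and 0.969 for the 4). The intervals reached from -0.78 to 0.64.

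**Figure D4:**
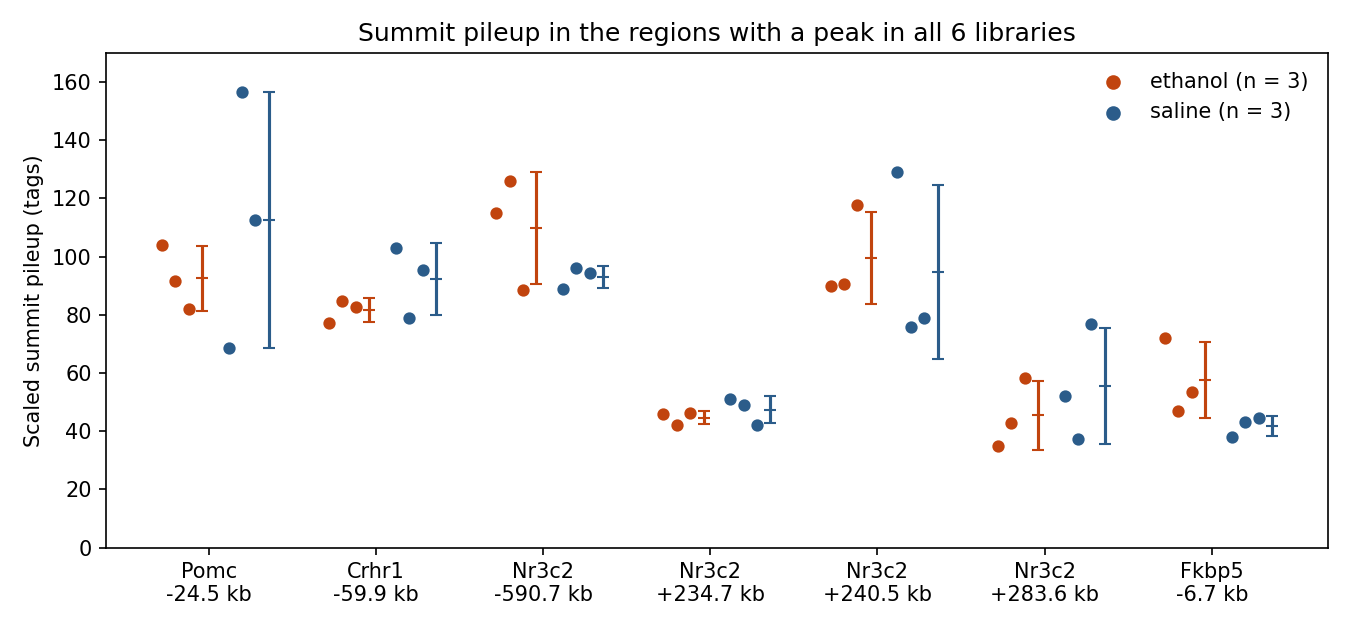
Summit pileup in tags, divided by the factor of the library (vertical), in the 7 regions of these genes with a peak in all 6 libraries, with ethanol left of saline. Points are libraries, and bars beside them are the mean ± SD of 3. The groups are apart only at the Fkbp5 region, where the ethanol libraries are at 47.1 or above and the saline libraries at 44.4 or below.

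A wider list of 40 stress axis genes (hormones, receptors, steroid enzymes and target genes) was chosen with earlier results of these data known. Of these 27 had a peak in any library, and 2 of the 27 (7.41%) had more peaks in every ethanol than in any saline library, beside the 5.12% of all genes given above, while 0 had fewer. The 2 were Sgk1, a kinase gene induced by corticosteroids, with 8, 10 and 10 peaks in ethanol and 4, 7 and 7 in saline libraries, and Adcyap1, which encodes the neuropeptide PACAP, with 8, 11 and 9 peaks in ethanol and 7, 6 and 7 in saline mice (exact permutation p = 0.1 and adjusted p = 1 for each). These numbers are not scaled, and the ethanol lists were longer. With lists of equal length, 1.14% of all genes had ethanol higher and 1.07% saline higher without overlap. The wider list was not counted in that way.

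Promoter peaks were found at 4 genes of the wider list, all of them melanocortin receptors, which bind peptides cut from the Pomc precursor. Mc5r had one in 3 ethanol and 2 saline libraries, with summits 1506 to 1714 bp downstream of the start. Mc3r had one in 1 ethanol and 3 saline libraries, 1031 to 1239 bp downstream. Mc4r and Mc1r each had one in 1 ethanol and 0 saline libraries, 769 and 1068 bp downstream. At none of the 4 was the promoter peak in all libraries of 1 treatment and in none of the other. All these summits lay downstream of the start and were classed as promoter by the 2000 bp limit. Mc2r, also a melanocortin receptor gene, had 6, 13 and 13 peaks in ethanol and 8, 10 and 6 in saline libraries. No Mc2r peak was classed promoter. How often genes outside the list had such a peak was not counted here, so nothing is concluded about this gene family.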

How the data were processed

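MeDIP-seq peaks were called in each library separately. Reads were aligned to mm10 (Bowtie2 2.1.0, per the submitters' processing notes) and peaks found with MACS version 2 below a q of 1e-4, per the series' design text. Per the file headers, the authors deposited for each peak the summit pileup (a coverage signal, unscaled), the fold enrichment (a ratio to local background), a q and an assigned gene. The deposited q column holds -log10 q. Depth was read only as the lowest background, the pileup plus 1 over the fold, minus 1.

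Peaks listed for several genes were counted once per gene. Numbers of peaks per gene were compared by two-sided exact permutation over 20 divisions of the 6 libraries. Log2 summit pileup, scaled by median of ratios, was fitted with limma 3.58.1 (R 4.3.3) and called at adjusted p under 0.05. These steps were run on simulated data with large changes set in. That does not show whether they would find small changes, or changes at genes with few peaks. Sequence was read from GRCm38, the assembly of mm10, and features from GENCODE M21. All 10 genes are described, and the sequence of 1 region is not reported here. They and the wider list were chosen with earlier results of these data known. Genes of the wider list were named where they had a promoter peak or their groups did not overlap. Alternatives are given in the closing section.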

Additional observations from a re-analysis of the deposited data

How the results depend on the processing

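With peaks per 10000, 1 gene (Pomc, -0.126, saline higher) had groups that did not overlap, as did 15.5% of all genes with saline higher. At Pomc this follows from a single peak in lists of unequal length. Leaving out a library gave 0 to 2 such genes, namely Nr3c2 and Oxtr without ethanol replicate 1 (17.6% of all genes, ethanol higher) and Fkbp5 without saline replicate 2 (10.6%). It gave 0 to 4 ethanol-specific regions, the 4 without ethanol replicate 1 (2 of Nr3c2, 2 of Oxtr), when 6.20% of all regions had the pattern, and 0 saline-specific regions. The ratio of summed peaks was 1.03 to 1.73 over the alternatives, and 1.28 to 1.76 without single libraries.

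Some of the 187 values of single genes and regions under alternatives could not count as a change of sign. The replicate block and the exact permutation test leave a difference as it was. At Crhbp and Pomc the mean numbers of peaks were equal, so a shift there was not counted. Of the 187, 15 changed sign, and the cause was not tested. For peaks per gene these were Nr3c2 (-1 with lists of equal length, -0.33 per 10000), Crh (-0.0152 per 10000, -0.167 without saline replicate 1, up to 0.833), Crhr1 (-0.0474 per 10000) and Nr3c1 (-0.333 without ethanol replicate 2, up to 2.17). For log2 pileup they were Nr3c2 at 234.7 kb (0.051 scaled by background, 0.13 unscaled), Crhr1 at -59.9 kb (0.042 unscaled), Pomc (0.0015 unscaled, and -0.53 to 0.066 without single libraries, the highest without saline replicate 2), Nr3c2 at 240.5 kb (-0.023 without ethanol replicate 3, -0.034 and -0.0045 without saline replicates 2 and 3, up to 0.35) and Nr3c2 at 283.6 kb (0.0069 without saline replicate 3, down to -0.51). Without scaling, and with scaling by background, the median of all regions moved to 0.21 and 0.13, and the Fkbp5 difference was 0.65 and 0.57 (limma adjusted p = 0.434 and 0.679). Over its alternatives it ranged from 0.27 to 0.65, always higher in ethanol, with adjusted p of 0.434 to 1.00. No region of these genes passed limma's test under any alternative run.

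The numbers were not taken as pairs, because equal numbers are not stated to mark littermates. Over the shared regions the deviations of same-numbered libraries correlated at -0.172, -0.0295 and -0.0109, and those of other-numbered libraries at -0.13 to 0.14. With 3 libraries per group, such correlations cannot show who shared a litter. With the replicate number as a block, 0 genes and 0 regions of the 7 were called, as without it (Fkbp5 pileup limma adjusted p = 0.979, and 0.5 for Oxtr by exact sign flips, which cannot go below 0.25).

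Depth, known only through the background, limits all statements on absence. Numbers of peaks come from lists of unequal length, and a peak that is missing is not a measured lack of methylation.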
